A study of Mus musculus with 33 samples.

Results

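The cell cycle genes described here are 45 genes listed by name for their part in DNA replication or cell division, out of 32285 genes measured in every sample. Of these, 17 act in or around S phase, 22 act in G2 and mitosis (G2/M), 5 are cyclins of the D and E types that act in G1, and the last is Stmn1, which encodes the microtubule-destabilising protein stathmin. All 45 were present in the files. They were followed across cell types, 4 tissues and the tagged and untagged cells of a niche labelling experiment, in which cells lying near injected tumour cells pick up biotin. The samples were 32 suspensions from mice with an intracardiac injection, 4 replicates for each combination of tissue (bone, brain, liver or lung) and sort (biotin positive, here called tagged, or biotin negative, here called untagged). A further pooled bone matrix held 6 tagged and 6 untagged samples told apart by hashtags, from mice given an injection that the labels name only IIA. All groups shared the labelling substrate, given overnight before collection, and collagenase dissociation. The labels name no mouse strain, age, genotype, tumour line or animal number, so p-values measure the spread between these samples.

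A dividing cell passes through G1, copies its DNA in S phase, and separates the copies in mitosis after G2. D-type cyclins (Ccnd1, Ccnd2, Ccnd3) and E-type cyclins (Ccne1, Ccne2) activate kinases that inactivate the retinoblastoma protein and free the E2F factors, which switch on genes such as the Mcm helicase subunits, Pcna and Tyms. G2/M genes, such as the mitotic cyclin Ccnb1, its kinase Cdk1 and the kinases Plk1 and Aurka, are switched on later through B-Myb and Foxm1, and many of their messages are lost as the cell leaves mitosis. In bone marrow many dividing cells belong to the neutrophil line: promyelocytes and myelocytes divide, and the neutrophils they give rise to do not.

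The promoters of 8 members are shown because these were the S and G2/M members with a RefSeq promoter entry and the smallest p-values in the contrast on which the account below turns most, tagged against untagged granulocyte precursors of IIA bone. Each sequence is the 120 bases upstream of the start site, 5′ to 3′ on the gene's strand, from RefSeq on GRCm38.p6, the assembly that mm10 corresponds to. Capitals mark E2F-type motifs in the S promoters, and cell cycle homology region (CHR) motifs and CCAAT boxes in the G2/M promoters, in either orientation.
Uhrf1: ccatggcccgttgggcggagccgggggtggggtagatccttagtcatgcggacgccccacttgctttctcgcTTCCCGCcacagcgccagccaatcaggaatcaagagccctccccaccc
Mcm5: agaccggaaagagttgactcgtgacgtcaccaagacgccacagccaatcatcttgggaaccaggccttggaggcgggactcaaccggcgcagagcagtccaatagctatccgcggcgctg
Mcm6: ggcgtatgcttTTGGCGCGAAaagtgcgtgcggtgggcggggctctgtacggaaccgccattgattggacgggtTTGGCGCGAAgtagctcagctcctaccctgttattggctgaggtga
Pcna: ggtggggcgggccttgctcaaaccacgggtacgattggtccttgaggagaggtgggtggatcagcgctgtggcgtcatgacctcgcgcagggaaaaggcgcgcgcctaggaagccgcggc
Ube2c: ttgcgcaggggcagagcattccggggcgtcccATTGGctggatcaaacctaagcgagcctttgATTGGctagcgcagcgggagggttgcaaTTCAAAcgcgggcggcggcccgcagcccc
Cenpf: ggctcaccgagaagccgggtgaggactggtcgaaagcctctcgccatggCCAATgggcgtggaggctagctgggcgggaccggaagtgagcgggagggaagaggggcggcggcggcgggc
Ccnb1: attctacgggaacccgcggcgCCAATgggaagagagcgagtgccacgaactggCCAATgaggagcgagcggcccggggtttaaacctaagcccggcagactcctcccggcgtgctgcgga
Aurka: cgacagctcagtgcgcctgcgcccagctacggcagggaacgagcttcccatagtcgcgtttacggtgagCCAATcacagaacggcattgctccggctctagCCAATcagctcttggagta

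The S promoters lie at chr17:56303217-56303336 (Uhrf1, plus strand), chr8:75109389-75109508 (Mcm5, plus), chr1:128359706-128359825 (Mcm6, minus) and chr2:132253181-132253300 (Pcna, minus). The G2/M promoters lie at chr2:164769809-164769928 (Ube2c, plus), chr1:189688087-189688206 (Cenpf, minus), chr13:100786487-100786606 (Ccnb1, minus) and chr2:172370571-172370690 (Aurka, minus). Mcm6 carried 2 copies of an element in which overlapping E2F motifs face each other, and each of the 4 G2/M promoters shown held a CCAAT box. A RefSeq promoter was found for 35 of the 45 members. Members are counted by gene, with a match in any promoter of the gene, whereas the 32851 promoters are counted singly. In the 250 bases upstream of the start, on both strands and with overlaps allowed, an E2F motif (TTCCCGC or TTGGCGC or TTCGCGC or TTGCCGC) was present in 7 of 15 S promoters (46.7%), 3 of 18 G2/M promoters (16.7%) and 7.89% of 32851 promoters. A CHR motif (TTTGAA or TTCGAA) was present in 2 of 15 S promoters (13.3%), 8 of 18 G2/M promoters (44.4%) and 17.1% of all. CCAAT was present in 10 of 15 S promoters (66.7%), 16 of 18 G2/M promoters (88.9%) and 33.8% of all. These are matches of letters, not binding sites.

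After filtering, 2206 to 11482 cells were left per group of intracardiac samples, and 17473 untagged and 4889 tagged cells of IIA bone. Samples held 482617 to 44834665 UMIs, with median depths per cell between 2532 and 11313.5 UMIs. The smallest sample was a tagged liver sample of 94 cells. Levels are UMI counts of a gene per 1000000 UMIs of the sample or cell class (CPM). Log2 differences come from fits that also scale the samples (TMM), so they can depart from the ratio of the printed levels. Brain replicate 1 stood apart: the summed G2/M level of its untagged cells was 2068, against 255.9, 439.9 and 1155 CPM in the other untagged brain samples. By class, untagged brain held 0.453% microglia-like and 35.1% neutrophil-like cells, so cells particular to the brain were few there, and tagged brain held 18.9% microglia-like cells. The IIA and intracardiac bone samples were made with different chemistries (5′ and 3′ end), so their levels were not set against each other. Cell types were assigned by clustering without 444 cell cycle genes, and a class name means that a cluster resembled that type.

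Bone held the highest levels of these genes among the 4 intracardiac tissues, brain replicate 1 apart. Summed over the 22 G2/M members, untagged bone held 1583, 1733, 2068 and 2107 CPM in replicates 1 to 4, and tagged bone held 2475, 1510, 3548 and 2517. Untagged liver lay between 272.9 and 726.6 and untagged lung between 96.6 and 216.9, with no overlap with bone. Brain replicate 1 was within the range of bone, and the other brain samples, tagged ones included, were below it. The 17 S members summed to 923, 940, 1378 and 1061 CPM in untagged bone, 272.5 to 368 in untagged liver and 132 to 294 in untagged lung, with brain replicate 1 again high at 1478.

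**Figure D1:**
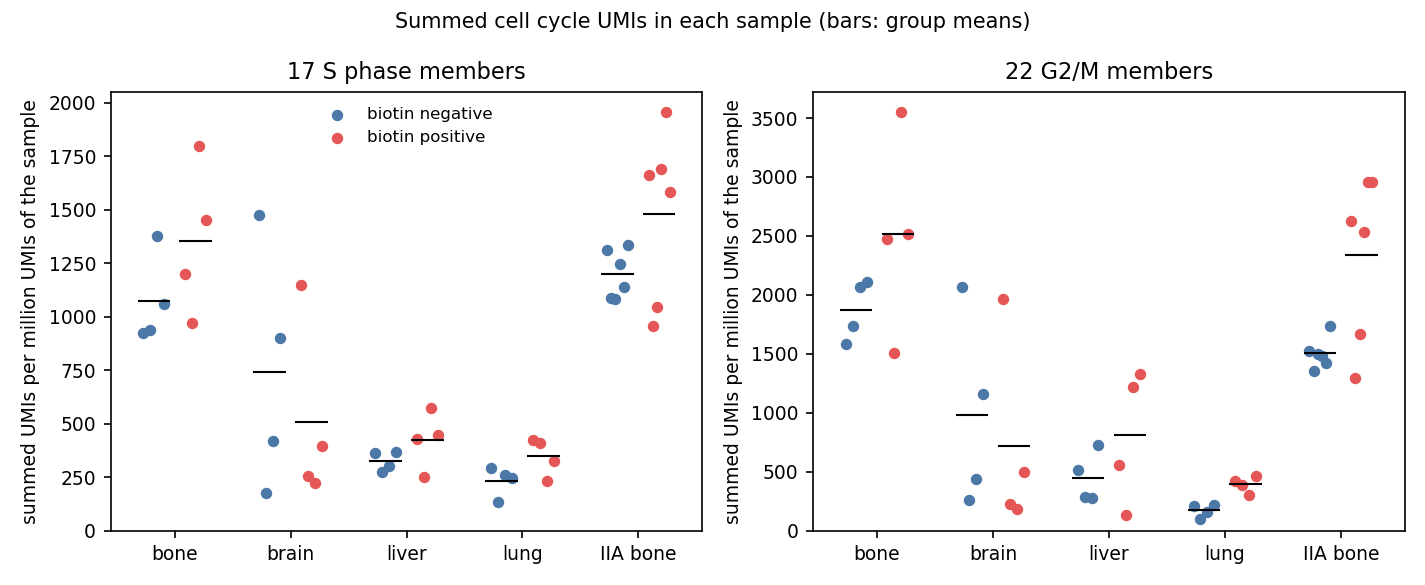
Summed levels (CPM) of the S members (17 genes) and the G2/M members (22 genes) in each sample, by tissue and biotin sort; points are samples. Untagged and tagged brain replicate 1 lie apart from the other brain samples for G2/M (2068 and 1963), and all 4 tagged lung samples lie above the untagged lung samples for G2/M (304.4 to 462.6 against 96.6 to 216.9).

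Among untagged cells, 41 of the 45 members were higher in bone than in the other tissues and none was lower (edgeR quasi-likelihood test, Benjamini-Hochberg adjusted p under 0.05). This fit, like that of the tagged cells below, had no term for the replicate numbers that the tissues share. Of all 13096 genes tested, 9.98% were called higher. All 22 G2/M members were called, with a median log2 difference of 2.47, and 16 of 17 S members, with a median of 1.67, beside a median of -0.0146 over all genes. Ccnb1 was at 32.15, 46.67, 52.31 and 59.49 CPM in bone and ranged from 1.556 to 42.36 with a median of 6.48 in the 12 other samples, a log2 difference of 2.76 ± 0.36 (SE, adjusted p = 0.00221). The ranges overlapped only through brain replicate 1. The replicative helicase subunit Mcm5 differed by 1.85 ± 0.38 (adjusted p = 0.00767) and the proliferation marker Mki67 by 2.38 ± 0.44 (adjusted p = 0.00544). Ccnd1, Ccnd2, Ccnd3 and Cdt1 were not called. Regulators of the cycle outside the list followed: of 41 listed, 40 were tested, and 20 were higher in bone, among them Cdc25c (2.62), Foxm1 (2.34) and E2f8 (2.27). The 4 that were lower were the antiproliferative genes Btg1 (-1.22) and Btg2 (-1.59) and the kinase inhibitors Cdkn1a (-1.59) and Cdkn1b (-0.75). The share of all genes called lower is not given here, so this count has no background beside it.

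Among tagged cells 43 members were higher in bone and 1 was lower, against 19.7% of 12843 genes called higher and 11.8% called lower. All 17 S members (median 2.06) and all 22 G2/M members (median 2.42) were higher, beside a median of 0.00909 over all genes. Ccnb1 was at 45.92 to 122.1 CPM in tagged bone and did not overlap the other tagged samples (2.82 ± 0.55, adjusted p = 0.00448). The replication licensing factor Cdc6 was at 9.49 to 16.8 in tagged bone and 1.14 to 7.15 elsewhere, also without overlap (2.46 ± 0.31, adjusted p = 0.00405). Ccnd1 was the exception, at 1.17 to 14.7 in tagged bone and 3.87 to 85.2 elsewhere (-2.02 ± 0.67, adjusted p = 0.0342). Of the 40 tested regulators, 22 were higher in tagged bone and 6 lower, the lowest being the inhibitors Cdkn2a (-3.45) and Cdkn2b (-2.37). The calls changed with the samples left out. Without replicate 3 in every tissue no member was called in either contrast, and 0 and 1 of all genes. Ccnb1 was then still at 2.64 in untagged and 2.60 in tagged cells (adjusted p = 0.0699 and 0.0729) and Mki67 at 2.15 and 1.99. Without replicate 4, 25 members were called among untagged and 0 among tagged cells. The share of all genes called without replicate 4 is not given here, so these counts are not read as particular to the members.

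Most G2/M UMIs came from few lineages. In untagged bone, granulocyte precursors, whose clusters were led by Elane, Mpo, Ctsg and Prtn3, made up 7.43% of the cells and gave 36.1% of the G2/M UMIs and 55.0% of the S UMIs of a sample on average (n = 4). Neutrophils made up 52.0% of the cells and gave 33.6% of the G2/M UMIs, and monocytes made up 16.1% and gave 22.3%. In tagged bone, granulocyte precursors were 17.7% of the cells and gave 56.4% of the G2/M UMIs, with a range of 26.7% to 87.6% between samples, while monocytes gave 4.37%. IIA bone differed more between the sorts. There the granulocyte precursors were 1.66% of untagged cells and gave 4.73% of their G2/M UMIs, and were 21.5% of tagged cells and gave 47.3%. Untagged IIA bone drew its G2/M UMIs from neutrophils (44.9%), monocytes (22.03%) and B cell precursors (9.14% from 4.03% of the cells).

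**Figure D2:**
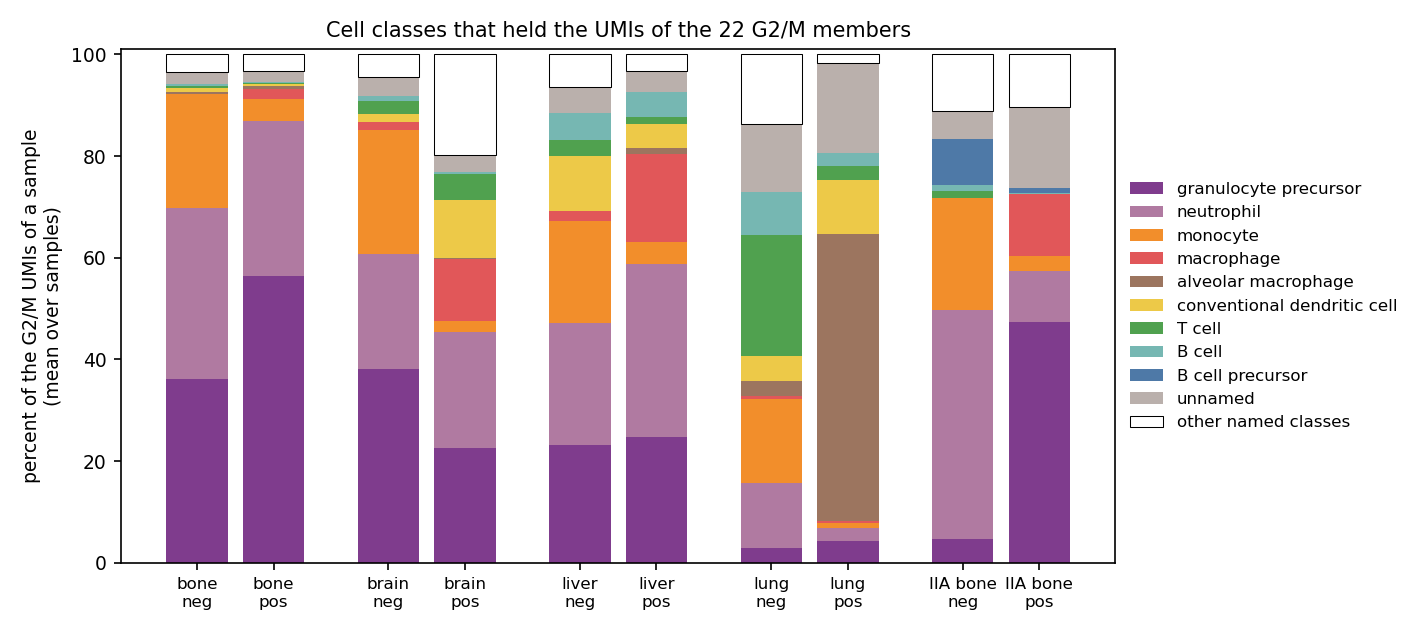
Mean share of a sample's G2/M UMIs (percent) that came from each cell class, by tissue and biotin sort. Granulocyte precursors gave 56.4% in tagged bone and 47.3% in tagged IIA bone against 4.73% in untagged IIA bone, and alveolar macrophages gave 56.4% in tagged lung.

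Outside bone the sources varied. Untagged brain drew 38.2% of its G2/M UMIs from granulocyte precursors, 4.92% of the cells, but these were 237 cells of replicate 1 (11.6% of that sample) and 181 cells of replicate 4 (6.34%), with under 20 cells in the other untagged samples. Tagged brain had no single leading source, with neutrophils at 22.8%, granulocyte precursors at 22.7%, macrophages at 12.2% and microglia, the resident macrophages of the brain, at 8.29%. In liver the leading classes were neutrophils (23.9% untagged, 33.8% tagged) and granulocyte precursors (23.1% and 24.8%), which were 0.668% of the untagged cells. In untagged lung T cells led with 24.0%, followed by monocytes with 16.5%. In tagged lung alveolar macrophages, the resident macrophages of the air spaces, gave 56.4% of the G2/M UMIs and 57.9% of the S UMIs.

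The level within a class ordered the lineages differently from their share of the total. In IIA bone, untagged B cell precursors had the highest mean summed G2/M level of the classes in those samples (4399 ± 889 CPM, SD, n = 6), with 3182 ± 685 for S, and 37.5% of them held at least 3 G2/M UMIs after every cell was thinned to 1000 UMIs. Untagged erythroid cells, found in sufficient number (20 cells) in 2 samples with 81 cells in all, held 4516 S and 3674 G2/M CPM, and 47.5% of them reached 3 G2/M UMIs. In the intracardiac bone samples the granulocyte precursors held 3309 ± 416 G2/M CPM untagged and 3373 ± 480 tagged (n = 4 each), a difference smaller than the spread between samples. Among the intracardiac classes with low levels, lung neutrophils held 90.5 ± 30.5 untagged and 69.4 ± 9.59 tagged, and 0.0517% of the untagged ones reached 3 G2/M UMIs. Liver endothelial cells held 56.2 untagged, and tagged microglia held 108, although their S levels were higher, at 261 and 242. Alveolar macrophages of tagged lung held 508 ± 229 G2/M and 420 ± 50.4 S CPM, and 3.34% of them reached 3 G2/M UMIs.

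Along the neutrophil line both phases were high in early clusters and low in late ones. In intracardiac bone, cluster 10 (led by Elane, Ctsg and Mpo) held 2482 S and 2702 ± 153 G2/M CPM in untagged cells, and cluster 4 (led by Ctsg, Pclaf and Prtn3) held 3098 and 3661. In cluster 7, led by the secondary granule genes Camp, Ltf and Ngp and named neutrophil-like, S members were lower, at 1036, and G2/M members stayed at 2776 ± 514. The next cluster, 14, led by Ltf, Ngp and Itgb2l, held 240 G2/M CPM, and clusters 11 and 6 held 46.3 and 113. The neutrophil class in bone thus joined a dividing cluster, which was 24.03% of untagged and 34.27% of tagged neutrophils, with clusters that held little of either phase.

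**Figure D3:**
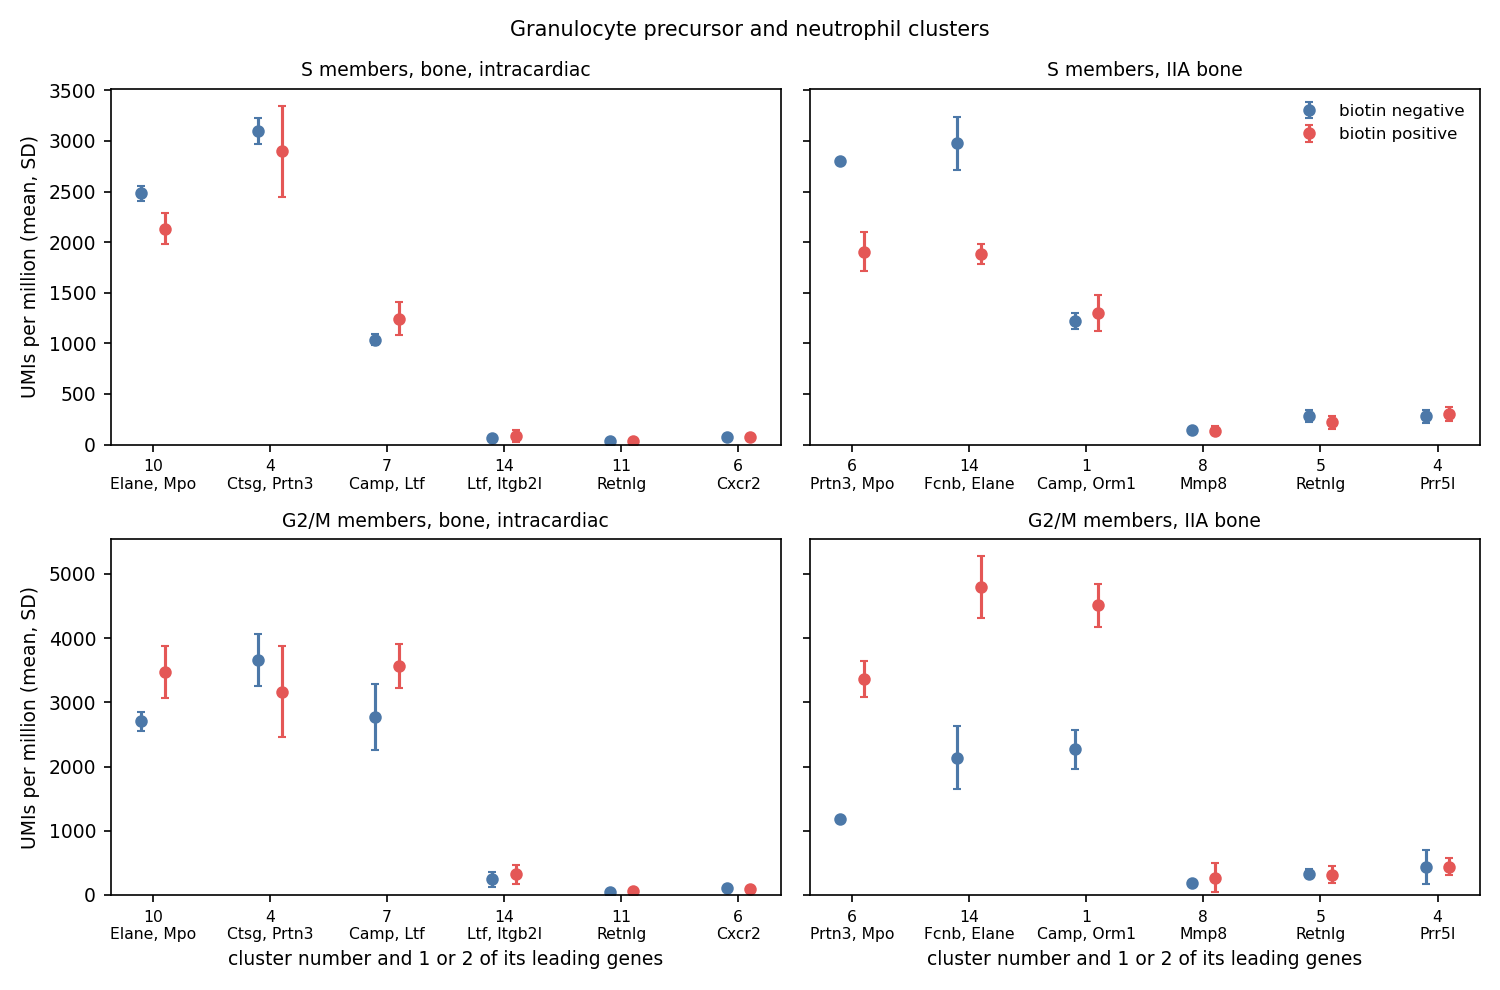
Summed S and G2/M levels (CPM) in clusters of the neutrophil line, ordered from granulocyte precursors to neutrophils, in intracardiac bone and IIA bone; points are means and bars SD over samples, and untagged IIA cluster 6 is 1 sample without SD. In IIA bone the tagged cells of clusters 14 and 1 lie above the untagged ones for G2/M (4798 and 4508 against 2136 and 2268), and the late clusters 8, 5 and 4 lie between 193 and 441 in both sorts.

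Tagged and untagged cells were then compared within each tissue over all cells of a sample, where a shift in cell types and a shift within a cell type cannot be told apart. In the lung, 17 of 45 members were higher in tagged cells and none was lower, against 11.5% of 12331 genes called higher. They were 14 of 22 G2/M members (median log2 difference of all 22, 1.28), 1 of 17 S members (Rrm1, a ribonucleotide reductase subunit, 0.82; median of the 17, 0.34), Ccnd2 and Stmn1, beside a median of -0.0385 over all genes. The spindle assembly factor Tpx2 was at 3.198, 2.889, 4.797 and 4.812 CPM in untagged lung and at 16.3, 14.2, 12.9 and 21.1 in tagged lung (1.79 ± 0.26, adjusted p = 0.00332). The spindle checkpoint kinase Bub1b was at 2.59, 3.06, 4.69 and 3.36 and at 18.1, 33.4, 12.64 and 12.03 (2.20 ± 0.32, adjusted p = 0.00338). The centromere proteins Cenpf (1.72 ± 0.29, adjusted p = 0.00565) and Cenpe (1.76 ± 0.34, adjusted p = 0.00991) and the kinesin Kif20a (1.18 ± 0.24, adjusted p = 0.0119) completed the 5 with the smallest p. In all of Tpx2, Bub1b, Cenpf and Cenpe the groups did not overlap.

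Mki67 was at 20.31, 9.091, 16.16 and 20.96 CPM in untagged lung and at 64.21, 43.16, 28.66 and 49.48 in tagged lung (1.23 ± 0.28, adjusted p = 0.0190). Every tagged value exceeded every untagged one. Ccnb1 (1.45 ± 0.35, adjusted p = 0.0223), Cdk1 (1.56 ± 0.37, adjusted p = 0.0209) and the topoisomerase Top2a (1.20 ± 0.35, adjusted p = 0.0449) also rose, while Plk1 missed the threshold (1.18, adjusted p = 0.0526), as did Pcna (0.32), Mcm5 (0.18), Tyms (0.51) and Rrm2 (0.83). Ccnd2 rose from 165.6, 54.5, 112.6 and 76.4 to 463.6, 570.3, 309.5 and 152.3 CPM (1.63 ± 0.39, adjusted p = 0.0221), with an overlap between the lowest tagged and the highest untagged sample. Of 40 tested regulators E2f1 (1.82), Rbl1 (0.95), Cdk6 (2.12), Foxm1 (1.56) and Cdc25a (0.95) rose and Rbl2 (-0.55) fell. DESeq2 called 24 members, and 25 had an unadjusted p under 0.05.

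The sorts of lung also differed in their alveolar macrophages. They made up 45.1%, 81.7%, 37.5% and 14.8% of tagged lung cells in replicates 1 to 4 and 0.284% of untagged lung cells on average (29 cells in all). With them left out, a setting chosen after seeing the data, edgeR called no member and 0.0% of 11970 genes (19 members at unadjusted p under 0.05). The G2/M differences stayed about as large without them: 20 of 22 members were above 0 with a median of 1.23 (16 at unadjusted p under 0.05), Tpx2 was at 1.65 and Mki67 at 1.21, while Ccnd2 turned to -0.85. Their part in the result was not tested beyond this. Within alveolar macrophages the sorts could not be compared, because only 1 untagged sample reached 20 alveolar macrophages: its 21 cells held 689 G2/M and 288 S CPM, beside 383, 439, 360 and 848 for G2/M in the tagged samples. The count of members called over all lung cells was 9 without untagged replicate 1, 7 without untagged replicate 3 and 11 without tagged replicate 1 or 2. The share of all genes called in those fits is not given here.

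In IIA bone, 12 of 45 members were higher and 3 lower in tagged cells, among 27.0% of 12625 genes called higher and 23.2% called lower. The share of members called was below the share of all genes in both directions. All 22 G2/M members had a log2 difference above 0 (21 of 22 with DESeq2 scaling), with a median of 0.47 beside 0.0801 over all genes, and 11 of them were called: Aurka (0.90), Aurkb (0.60), Bub1b (0.52), Ccnb1 (0.94), Cdc20 (0.49), Cdk1 (0.62), Cenpe (0.57), Cenpf (0.55), Plk1 (0.81), Tpx2 (0.58) and Ube2c (0.74). Of the S members 1 was called, the thymidine kinase gene Tk1 (0.36). Ccnb1 was at 22.36 to 31.54 CPM in the 6 untagged samples, and did not overlap the tagged ones, at 63.32, 36.42, 40.61, 61.4, 79.95 and 75.88 (0.94 ± 0.19, adjusted p = 0.00143). Mki67 overlapped between the sorts (175.2 to 230.1 untagged, 131.2 to 302.7 tagged; 0.03, adjusted p = 0.894). Its mean was 198.0 untagged and 240.2 tagged before the scaling used in the fit.

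The member with the smallest p in IIA bone was a G1 cyclin. Ccnd3 was at 278.5, 269.1, 266.9, 287.5, 267.0 and 253.0 CPM in untagged samples and at 106.3, 86.52, 93.72, 126.5, 88.95 and 145.5 in tagged ones (-1.57 ± 0.12, adjusted p = 3.36e-06). Ccne1 (-0.70) and Ccne2 (-0.68) fell as well. The makeup of the sorts also differed in classes with high and low Ccnd3. In untagged IIA bone it was high in B cell precursors (535 ± 21.9 CPM), T cells (527 ± 48.4), B cells (499.8 ± 38.2) and neutrophils (275 ± 8.53), and it was at 53.8 in tagged macrophages, a class that was 18.5% of tagged and 0.521% of untagged cells. Within classes, Ccnd3 was lower in tagged granulocyte precursors (-0.68, adjusted p = 0.00131) and differed by 0.02 in neutrophils, and the part of makeup in the fall over all cells was not tested. Of 37 tested regulators 11 rose, led by Cdk6 (1.46), Myc (1.23) and Mybl2 (0.91), and 10 fell, led by E2f2 (-1.70), Cdkn2d (-1.19) and Btg2 (-1.06). With granulocyte precursors left out, a setting chosen after seeing the data, 8 members were called, 2 of them higher, where 25.1% of 12684 genes were called higher and 23.2% lower, and Cdc20 was at -0.017. With all classes kept, the count was 23 without tagged replicate 2, 9 without untagged replicate 3 or tagged replicate 5 and 8 without tagged replicate 6. The share of all genes called in those fits is not given here.

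Brain and liver gave almost no calls over all cells. In the brain all 17 S and all 22 G2/M members had a log2 difference below 0 (medians -0.852 and -0.697, beside -0.0264 over all genes), and none was called (0 at unadjusted p under 0.05, 0 by DESeq2). Mki67 was at 305.7 CPM untagged and 257.9 tagged in brain replicate 1, and at 30.44 to 155.2 and 15.06 to 57.31 in the other replicates, so replicate 1 was highest in both sorts. The single call was Ccnd1, at 16.3, 9.09, 11.5 and 5.69 CPM in untagged and 21.5, 39.8, 51.2 and 82.9 in tagged brain (1.94 ± 0.40, adjusted p = 0.0394, 0.0639 with the replicate number as a block), where 2.88% of 11064 genes were called higher. It was kept when tagged replicate 1 was left out and lost without any one of the 7 other samples. Ccnd1 was high in microglia (160 ± 33.3 in tagged brain, n = 3), which were 18.9% of tagged and 0.453% of untagged brain cells. The inhibitor Cdkn1c (2.57) was the 1 regulator called of 37. In liver 21 of 22 G2/M members were above 0 (median 0.557, beside 0.0247 over all genes), and none of the 45 was called (1 at unadjusted p under 0.05, 0 by DESeq2; 0.0% of 11854 genes called).

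In intracardiac bone 16 of 17 S members (median 0.264) and 21 of 22 G2/M members (median 0.231) were above 0, beside a median of 0.0114 over all genes. By replicate number, the summed S level was higher in tagged cells in 4 of 4 and the summed G2/M level in 3 of 4. No member was called by edgeR or DESeq2 and none had an unadjusted p under 0.05 (0.0% of 12533 genes called). In simulated counts with these samples' spread, the all-cell fits recovered 3.09% of 2-fold changes in bone, 8% in brain and 2.02% in liver. The figure was 10.6% in lung and 63.5% in IIA bone, so the lack of calls does not show equal levels. Mki67 was at 232.6, 196.3, 234.4 and 255.9 CPM untagged and at 367.9, 165.3, 295.3 and 243.3 tagged, so the tagged values lay on both sides of the untagged ones (0.04 ± 0.28, adjusted p = 0.971). A test of whether the tagged against untagged difference itself varied between the 4 tissues called 0 of 45 members (edgeR; 1 at unadjusted p under 0.05, 1 by DESeq2; 1.15% of 13963 genes called). The lung and bone results are therefore not shown to differ for these genes.

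The comparison within a cell type was possible in 18 combinations of class and tissue, those with at least 20 cells per sample in at least 3 samples of each sort. In the granulocyte precursors of IIA bone, 32 of the 43 members tested were called between 5 tagged samples (1400 cells; replicate 2 had too few) and 6 untagged samples (294 cells), 19 higher and 13 lower. Among all 7193 genes tested, 4.45% were called higher and 7.28% lower. The direction followed the phase: all 22 G2/M members were above 0 (median 0.759) and 19 were called higher, and all 17 S members were below 0 (median -0.52) and 11 were called lower, beside a median of 0.000611 over all genes. Summed, untagged precursors held 2496 ± 275 S and 1762 ± 440 G2/M CPM, and tagged precursors held 1925 ± 159 and 3442 ± 244. DESeq2 also called 32.

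The ubiquitin-conjugating enzyme Ube2c, which helps degrade mitotic cyclins, was at 65.9 to 202.7 CPM in untagged precursors (median 170.9) and at 498.3, 402.6, 581.0, 429.1 and 584.0 in tagged ones (1.56 ± 0.16, adjusted p = 7.17e-07). Cenpf was at 29.0 to 81.4 (median 59.3) and at 165.7, 182.8, 168.7, 136.8 and 164.5 (1.43 ± 0.15, adjusted p = 9.34e-07). Ccnb1 was at 10.6 to 48.4 (median 38.5) and at 86.7, 103.1, 104.9, 89.1 and 101.3 (1.41 ± 0.19, adjusted p = 2.50e-05). In these 3 genes every tagged sample lay above every untagged one. Aurka was at 18.5 to 59.0 (median 49.2) and at 96.5 to 124.4 (1.12 ± 0.16, adjusted p = 3.74e-05). The spindle protein gene Nusap1 was at 10.6 to 53.0 (median 37.5) and at 87.5 to 105.9 (1.17 ± 0.17, adjusted p = 5.50e-05). Plk1, which drives entry into mitosis, was at 7.91 to 49.9 (median 40.7) and at 82.2, 87.5, 107.3, 90.9 and 125.4 (1.26 ± 0.20, adjusted p = 0.000109). Top2a (0.69 ± 0.14, adjusted p = 0.00184) and Cdk1 (0.45, adjusted p = 0.0316) rose less, and Mki67 was not called (0.27, adjusted p = 0.156), nor were Bub1 and Bub1b.

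The S members went the other way. Uhrf1, a reader of newly copied DNA, was at 88.9 to 150.3 CPM in untagged precursors (median 103.7) and at 71.7, 54.5, 75.9, 65.8 and 58.9 in tagged ones (-0.92 ± 0.13, adjusted p = 3.45e-05). Mcm5 was at 147.5 to 232.0 (median 187.5) and at 121.3, 101.1, 94.0, 140.0 and 109.6 (-0.79 ± 0.11, adjusted p = 4.57e-05). Mcm6, another subunit of the same helicase, was at 183.1 to 253.1 (median 237.1) and at 174.1, 108.9, 131.4, 167.0 and 113.8 (-0.80 ± 0.12, adjusted p = 9.57e-05). No tagged sample reached the untagged range in any of the 3. The sliding clamp gene Pcna was at 216.2 to 349.9 (median 269.1) and at 203.5, 165.3, 203.7, 177.2 and 139.2 (-0.74 ± 0.12, adjusted p = 0.000262). Mcm4 (-0.88 ± 0.13, adjusted p = 6.21e-05) and the thymidylate synthase gene Tyms (-0.85 ± 0.14, adjusted p = 0.000318) also fell, whereas Rrm2 (-0.27) and Tk1 (-0.45) were not called. Of the promoters printed above, those of Uhrf1, Mcm5, Mcm6 and Pcna belong to genes that fell and those of Ube2c, Cenpf, Ccnb1 and Aurka to genes that rose.

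**Figure D4:**
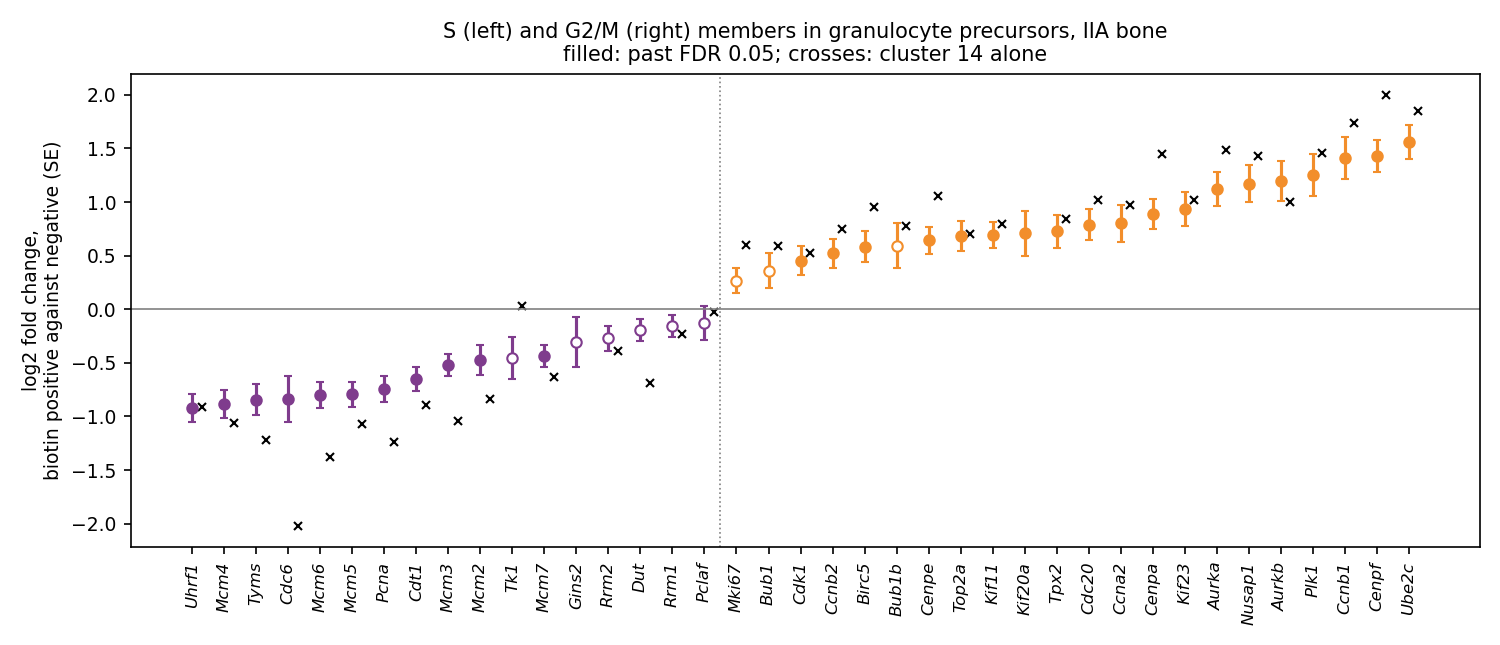
Log2 difference between tagged and untagged granulocyte precursors of IIA bone for the members, ordered by role; points are edgeR estimates with SE, filled where the adjusted p was under 0.05, and crosses give the same difference in cluster 14 alone. All 22 G2/M points lie above 0 and all 17 S points below it.

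**Figure D5:**
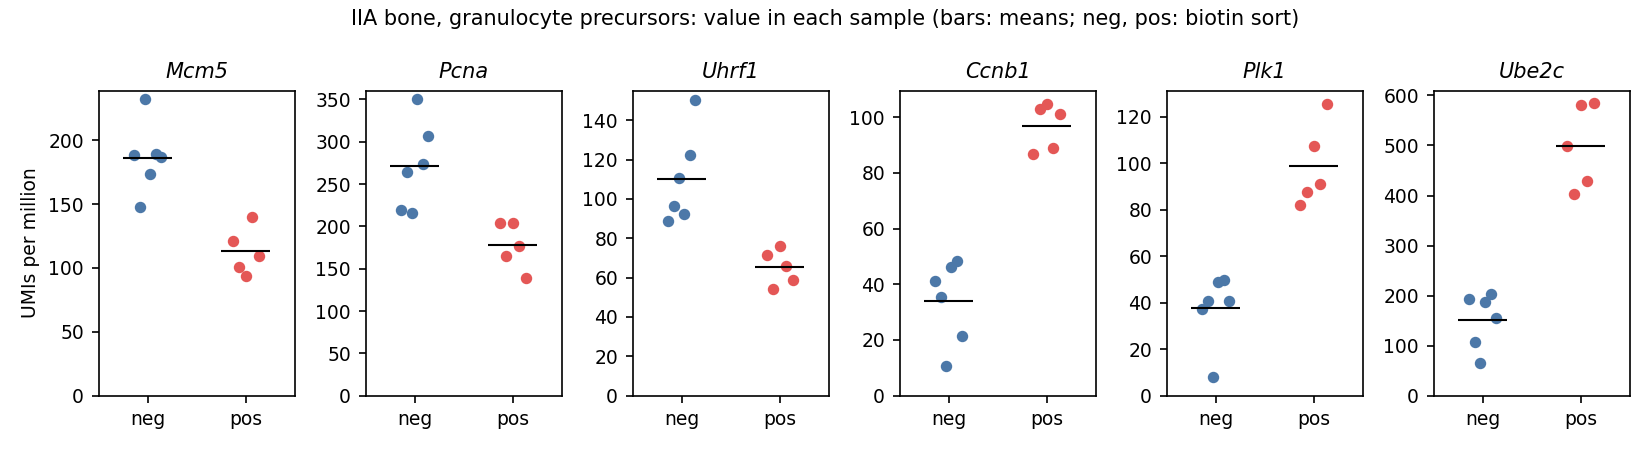
Level (CPM, UMIs per 1000000) of Mcm5, Pcna, Uhrf1, Ccnb1, Plk1 and Ube2c in the granulocyte precursors of each IIA bone sample, 6 untagged and 5 tagged; points are samples and lines are means. For each of these genes the sorts do not overlap, with Mcm5, Pcna and Uhrf1 lower and Ccnb1, Plk1 and Ube2c higher in tagged cells.

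Among the G1 cyclins tested in these precursors, Ccne2 (-1.56, adjusted p = 0.000205) and Ccnd3 (-0.68, adjusted p = 0.00131) fell, and Ccnd2 (0.41, adjusted p = 0.0702) was not called, nor was Stmn1 (-0.26, adjusted p = 0.166). Of 33 tested regulators 11 were called. Rb1 (-1.21), E2f1 (-1.34), E2f2 (-1.06), E2f7 (-1.13), E2f8 (-0.53), the S phase kinase gene Cdk2 (-0.55), Cdc25a (-0.57) and Btg1 (-0.68) fell. Cdc25c (1.29), which activates Cdk1 at the start of mitosis, Fzr1 (1.09), an activator of the complex that degrades mitotic proteins, and Cdk6 (0.45) rose. The relatives Rbl1 (-0.24), Rbl2 (-0.03), E2f3 (-0.17) and E2f4 (0.41) were not called.

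The precursor class was not made up alike in the sorts. Untagged precursors came 56.12% from cluster 14 (led by Fcnb and Elane), 32.99% from cluster 6 (led by Prtn3, Mpo and Elane) and 10.88% from cluster 11, and tagged precursors 17.42%, 67.14% and 15.44%. Their median depth was 7328.5 to 10784 UMIs per cell untagged and 8406.5 to 18095 tagged. Within cluster 14 alone (4 samples each, chosen after seeing the data), 30 of 39 tested members were called, where 2.3% of 3951 genes were called higher and 1.77% lower. There 18 of 21 G2/M members rose (median 1.00) and 12 of 16 S members fell (median -0.90), beside a median of -0.0058 over all genes. Cenpf differed by 1.998 ± 0.215 (adjusted p = 1.31e-07) and Mcm6 by -1.38, and Mki67, not called in the whole class, was called (0.60, adjusted p = 0.0101). The summed levels did not overlap: S was 2711 to 3337 untagged and 1781 to 2004 tagged, and G2/M was 1494 to 2646 and 4253 to 5373. Tagged replicate 5 held 1023 of the 1400 tagged cells, and 31 members were called without it. The part of depth in the result was not tested.

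Neutrophils of IIA bone, compared over 6 samples of each sort, had G2/M members called and no S member called. Of 44 members tested 21 were called, all G2/M and all higher (21 of 22, Bub1 at 0.50 with an adjusted p of 0.0954), against 1.97% of 8667 genes called higher. The median over the G2/M members was 0.981, and over the 17 S members -0.0115, the latter beside -0.00734 over all genes; no S member was called (5 at unadjusted p under 0.05, 0 by DESeq2). Cenpf was at 48.4 to 75.9 CPM untagged (median 52.7) and 54.1 to 210.8 tagged (median 152.3; 1.39 ± 0.15, adjusted p = 4.44e-05). Aurka did not overlap, at 19.9 to 30.4 (median 24.8) and 40.8 to 78.7 (median 69.0; 1.34 ± 0.15, adjusted p = 4.44e-05), nor did the cyclin Ccnb2, at 39.3 to 47.4 (median 41.7) and 60.8 to 94.7 (median 87.0; 0.90 ± 0.10, adjusted p = 4.44e-05). Mki67 was at 155.9 to 191.4 (median 171.0) and 141.9 to 396.5 (median 320.8; 0.75 ± 0.14, adjusted p = 0.00417), with tagged replicate 2 lowest of all 12 samples. Of 34 regulators Cdkn2c (1.00), E2f8 (0.68) and Cdc25b (1.09) rose.

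The IIA neutrophils were also taken by cluster. Cluster 1, led by Orm1, Chil3, Camp and Ngp and holding 38.35% of untagged and 36.71% of tagged neutrophils, had G2/M levels of 1968 to 2718 untagged and 4202 to 5046 tagged and S levels of 1136 to 1319 and 1123 to 1544. Tested alone, chosen after seeing the data, 25 of its 43 tested members were called: 21 G2/M members, Pclaf and Stmn1 (0.40) rose and Pcna (-0.55) and Ccne2 (-1.41) fell, where 3.58% of 8051 genes were called higher and 2.21% lower. In clusters 8 and 5 alone, edgeR called no member of 22 and 12 tested, but also 0.0% of 6553 and 4271 genes. In cluster 8 Cenpf was at 1.39 ± 0.69 and Top2a at 1.09 ± 0.35 (9 of 11 tested G2/M members above 0, median 0.559), and in cluster 5 1 of 6 was above 0 (median -0.194). When the cell cycle genes were kept for clustering, 1769 untagged (43.04%) and 200 tagged (60.06%) of the cluster 1 cells went to an unnamed cluster, and edgeR called 0 of the 39 members tested in the class as then formed (12 at unadjusted p under 0.05), as well as 0.0% of 7518 genes. There 21 of 22 G2/M members were still above 0, with a median of 0.502 in place of 0.981. The cause of the lost calls was not tested.

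IIA monocytes, compared between 3 tagged and 6 untagged samples, held 4002, 3595 and 4627 G2/M CPM tagged and 1515 to 3183 untagged, without overlap. All 22 G2/M members were above 0 (median 0.842, beside -0.0257 over all genes). None of the 45 members was called by edgeR (18 at unadjusted p under 0.05; 0.0537% of 9303 genes called), with Cenpa at 1.11 (adjusted p = 0.0933), Ube2c at 1.201 and Cenpf at 1.40, while DESeq2 called 7. Without untagged replicate 6, which held 3183, edgeR called 6.

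In the granulocyte precursors of intracardiac bone (597 tagged and 842 untagged cells, 4 samples each), S members were mostly below 0 (16 of 17, median -0.27) and G2/M members were split (12 of 22 above 0, median 0.0748), beside a median of 0.0187 over all genes. None of the 45 was called (7 at unadjusted p under 0.05, 2 by DESeq2), with 0.0974% of 10270 genes called. With the replicate number as a block 11 were called, 10 lower and Ccnd2 higher (1.29, blocked adjusted p = 0.0130), where 9.31% of all genes were called lower and 6.18% higher. By role these were 6 of 17 S members and 1 of 22 G2/M members, with G1 cyclins and Stmn1. Pclaf, which encodes a partner of the sliding clamp, was at 753.9, 636.5, 716.8 and 594.3 CPM untagged and at 421.6, 474.9, 408.8 and 452.1 tagged (-0.62 ± 0.12, adjusted p = 0.0664, blocked 0.00293), without overlap. Ccne1 was at 31.4, 32.2, 36.9 and 27.9 and at 18.7, 24.6, 9.48 and 17.9, also without overlap (-0.93 ± 0.24, blocked adjusted p = 0.0215). Mcm5 (-0.39, blocked 0.0278), Pcna (-0.42, blocked 0.0253), Mki67 (-0.31, blocked 0.0176) and Ccnd3 (blocked 0.0106) were among the others. Cluster 10, the earlier one, was 42.04% of untagged and 74.2% of tagged precursors. In cluster 10 alone, chosen after seeing the data, all 17 S members were below 0 (median -0.40), and 0 of 44 tested members were called (15 at unadjusted p under 0.05; 0.0% of 9325 genes called). Median depth was 18876 to 35385.5 UMIs per cell untagged and 29961 to 45578 tagged.

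Neutrophils of intracardiac bone had summed G2/M levels of 754.7, 1393, 1492 and 1520 CPM untagged and 2833, 1595, 2345 and 1474 tagged. All 17 S members (median 0.446) and 22 G2/M members (median 0.512) were above 0, beside -0.00514 over all genes, and 0 of 44 tested were called (12 at unadjusted p under 0.05, 0 by DESeq2; 0.0% of 9297 genes called). Bone monocytes had 2 of 22 G2/M members above 0 and no call in 43 tested (3 at unadjusted p under 0.05, 0.0% of 9208 genes called). In liver neutrophils the 17 tested G2/M members were all above 0 (median 1.23, beside -0.0128 over all genes), with summed levels of 330.6, 278.8, 300.8 and 655.6 untagged and 635.1, 573.9, 813.6 and 1760 tagged. None of 24 tested was called without the block (11 at unadjusted p under 0.05, 0 by DESeq2; 0.0% of 4852 genes called), and 8 with it, all higher, where 0.495% of genes were called higher, among them Top2a (1.33, blocked adjusted p = 8.77e-05), Ube2c (1.44, blocked 0.000340) and Mki67 (0.74, blocked 0.0217). The highest sum, 1760, came from tagged replicate 4, the sample of 94 cells in all. The dividing cluster 7 was 2.809% of untagged and 4.484% of tagged liver neutrophils, and the part of this makeup was not tested.

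The remaining classes had 4 to 37 members tested and no calls by edgeR without the block, and 0.0% of all genes were called in each except brain macrophages (4.95% of 4264 genes). Lung T cells had 23 tested members, 15 of them at an unadjusted p under 0.05, with Cdk1 at 2.52 without overlap (adjusted p = 0.578) and 1 call by DESeq2. Tagged replicate 1 stood apart there: its 58 T cells held 1928 G2/M CPM, against 313.6 and 461.6 in the other tagged samples and 198.1 to 345.7 in untagged ones. Mki67 was at 2.01 with that sample (tagged 10.82 to 248.6, untagged 22.21 to 33.58 CPM) and at -0.0046 without it, and Cdk1 at 2.05 without it. Liver B cells had 18 tested, 7 at an unadjusted p under 0.05, 2 calls by DESeq2 and 1 with the block (Top2a, 2.70; 0.0332% of genes called higher). Liver macrophages had 8 tested and 3 lower with the block (Pclaf, Ccnd2 and Stmn1; 5.83% of genes called lower). Brain neutrophils had 37 tested and 6 lower with the block (Pcna, Uhrf1, Dut, Mki67, Top2a and Cenpf; 0.978% of genes called lower). In bone B cells (9 tested), brain macrophages (7), brain T cells (9), liver endothelial cells (4), lung B cells (8), lung monocytes (20) and lung neutrophils (5) no member had an unadjusted p under 0.05 or a call by DESeq2.

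The share of cells with an Mki67 UMI, after thinning every cell to 1000 UMIs, gave a count of marked cells per sample. It was 11.4% ± 5.00 in tagged and 8.12% ± 1.54 in untagged bone (SD, n = 4 each; exact permutation test, two-sided, p = 0.343, adjusted over the 5 comparisons 0.572). In lung it was 2.05% ± 0.932 tagged and 0.765% ± 0.191 untagged, higher in 4 of 4 replicate numbers (p = 0.0286, the smallest that the exact test allows with 4 against 4, adjusted 0.143). In IIA bone it was 14.6% ± 5.19 and 10.0% ± 1.33, higher in 5 of 6 (exact p = 0.0758, adjusted 0.189). Brain (2.49% ± 2.01 tagged and 4.53% ± 4.76 untagged) and liver (2.11% and 1.96%) had adjusted exact p of 0.8 each. In bone, brain and liver, where the numbers pair the samples, the share was higher in tagged cells in 2 of 4 pairs each, and an exact paired permutation test gave p = 0.5, 0.5 and 0.625. The summed G2/M level over all cells, in contrast to this share, was lower in tagged cells in all 4 brain pairs. Without thinning the shares were 8.44% and 3.43% in lung, 42.2% and 22.3% in IIA bone and 31.8% and 23.5% in bone. Lung neutrophils, which should not divide, gave 0.978% ± 1.25 tagged and 0.481% ± 0.590 untagged at median depths of 4268 and 4020 UMIs before thinning. The untagged lung share lay between these background means and the tagged lung share above both. With an SD of 1.25, the tagged background does not set the tagged lung share apart. Thinning left out cells under 1000 UMIs, 1.01% to 5.78% of untagged and 1.23% to 7.75% of tagged cells by tissue.

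Each D-type cyclin had its own pattern over the classes, where IIA values stand beside the intracardiac ones and are not ranked against them. Ccnd1 was high in plasmacytoid dendritic cells, the interferon-producing dendritic type, at 236 ± 104 CPM in untagged liver, 210 ± 41.0 in untagged IIA bone and 198 ± 46.2 in untagged bone. In brain macrophages Ccnd1 was at 37.25 to 88.36 tagged and 17.02 to 83.32 untagged, so the sorts overlapped. Ccnd2 was at 687 ± 110 in tagged alveolar macrophages, 553.5 ± 88.9 in untagged lung natural killer cells and 383 ± 86.1 in untagged IIA T cells. Ccnd3 was at 121 in untagged and 82.6 in tagged IIA granulocyte precursors, below every lymphoid value given for it above. Stmn1 stood with the dividing classes, at 916 ± 128 in untagged bone granulocyte precursors, 793 ± 99.5 in IIA B cell precursors and 766 ± 113 in IIA stem and progenitor cells.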

How the data were processed

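The values are raw UMI counts, as deposited by the authors: 32 intracardiac matrices already separated by CellPlex tag and 1 pooled IIA bone matrix. Per the file headers the matrices came from cellranger 6.1.2 and 7.1.0. Cell Ranger, Seurat and mm10 are named per the submitters' processing notes; whether introns were counted is not given in the sources used here. The members, regulator and marker lists were chosen with earlier results of these data known.

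IIA cells were assigned to a hashtag with at least 10 counts and 3 times the second (22685 of 26666). Cells with 500 UMIs, 200 genes and at most 15% mitochondrial UMIs were kept (55366 of 57065 and 22362). Libraries with the same replicate number shared 0 barcodes, and 384 other pairs shared 341. Clustering used scanpy 1.11.5 (2000 variable genes, 30 components, 15 neighbours, Leiden resolution 1.0); 37 of 45 intracardiac and 24 of 30 IIA clusters were named from at least 3 markers among 100 leading genes, which left 13.183% and 8.827% of cells unnamed. Doublets were kept in the values given; an alternative left out the 5% of cells with the highest Scrublet score in each sample.

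Counts were summed per sample, or per sample and class with at least 20 cells, and tested with edgeR 4.0.16 (R 4.3.3; TMM, filterByExpr, quasi-likelihood, Benjamini-Hochberg over all genes, 0.05), after the code had been tested on simulated data. DESeq2 1.42.0, no filter, leave-one-out fits, a replicate block and clustering with cell cycle genes were alternatives. TMM and DESeq2 scaling moved the median of all genes by less than 0.1 (log2). Same-numbered samples deviated together in bone (r = 0.448 to 0.738), brain (0.213 to 0.629) and liver (0.256 to 0.501), so the numbers were taken as pairs there. Shares used cells thinned to 1000 UMIs. Genes named were the members called, at most 5 per direction by smallest p, plus 14 fixed members, and regulators that were called.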

Additional observations from a re-analysis of the deposited data

Results flagged for a closer look

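Summed G2/M levels (counts per 1000000, CPM) per class and sample were examined for a sample far from the others in 60 groups, of which chance flags about 1 in 20; 4 stood out. Untagged granulocyte precursors of IIA bone replicate 3 held 917.5 CPM against 1785 to 2123 in the other 5. Untagged bone neutrophils of replicate 1 held 754.7 against 1393 to 1520. Untagged liver neutrophils of replicate 4 held 655.6 against 278.8 to 330.6. Tagged lung alveolar macrophages of replicate 4 held 848.0 against 359.8 to 439.0, in the sample where they were fewest (100 cells).

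Over all cells, the summed G2/M level was higher in tagged cells in 4 of 4 lung replicate numbers and in 0 of 4 brain numbers. The mean difference, tagged minus untagged, was 486.0 CPM higher in lung than in brain. The difference of the sums was not tested; the test per gene across the 4 tissues called 0 of 45 members.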

How the results depend on the processing

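Counts of members called changed by no more than 1.5 times in 334 of 383 alternative fits, and 5108 of 5534 alternative values of single members kept their direction and side of the threshold.

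With the replicate block the counts became 0 (brain, all cells), 11 (bone granulocyte precursors), 6 (brain neutrophils), 1 (liver B cells), 3 (liver macrophages), 8 (liver neutrophils), 3 (IIA monocytes) and 7 (lung T cells). In lung and IIA bone the levels did not show that the numbers pair samples (3 of 4 and 3 of 6 correlated best with their own). Same-numbered intracardiac libraries, those of lung included, shared 0 barcodes. DESeq2 gave 2 (bone granulocyte precursors), 7 (IIA monocytes), 2 (liver B cells), 1 (lung T cells) and 1 (difference between tissues). Without the low-count filter they were 9 (IIA, all cells), 2 (bone granulocyte precursors), 5 (brain macrophages), 8 (IIA monocytes), 7 (liver B cells), 1 (liver endothelial cells), 2 (liver macrophages), 7 (liver neutrophils), 5 (lung B cells) and 14 (lung T cells). Clustering with cell cycle genes gave 0 in IIA neutrophils. Of settings chosen after seeing the data, leaving out alveolar macrophages gave 0 in lung (G2/M median 1.23 against 1.28) and Ccnd2 at -0.85, leaving out granulocyte precursors gave 8 in IIA bone and Cdc20 at -0.017, and cluster 2 alone gave 3 in liver B cells. The cause was not tested in any of these.

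Leaving out 1 sample gave ranges of 0 to 1 (brain all cells, brain macrophages, liver B cells), 7 to 16 (lung, all cells), 8 to 23 (IIA, all cells), 0 to 6 (IIA monocytes), 28 to 33 (IIA granulocyte precursors), 21 to 22 (IIA neutrophils), 0 to 43 (untagged bone against other tissues) and 0 to 44 (tagged). These ranges are counts of members, without the shares of all genes called in the same fits. The tagged minus untagged Mki67 share ranged from -3.275 to 0.1252 points in brain, turning above 0 without untagged replicate 1, and from -0.2993 to 0.65 in liver, below 0 without tagged replicate 4 (-0.2993) or untagged replicate 2 (-0.1587). In IIA bone it ranged from 3.323 to 6.095 and passed the threshold without tagged replicate 2 (6.095, exact permutation test, adjusted p = 0.0217). Several tagged classes of liver and brain held few cells, and the part of this in the class comparisons was not tested.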
